A study of Mus musculus with 80 samples.

Results

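The genes described here encode the subunits, activators and assembly chaperones of the proteasome. They were taken as every gene whose symbol in the deposited expression table is Psma, Psmb, Psmc, Psmd, Psme or Psmg followed by a number. This gave 41 genes of the 13016 in that table, and all 41 were tested. By role they were 7 alpha-ring and 7 constitutive beta-ring subunits of the 20S core, the inducible core subunit Psmb10, 6 ATPases and 3 non-ATPase subunits of the base of the 19S cap, 7 subunits of its lid, 4 alternative activators and 6 assembly chaperones. A further 6 genes of the same naming pattern carry no symbol in that table or are not in it. Psmd12, a lid subunit, and Psmg1, an assembly chaperone, were matched by gene identifier and are given separately. Psmb8, Psmb9, Psma8 and Psmb11 did not reach the expression filter of 5 CPM (counts scaled to a common library total) in 8 libraries.

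RNA-seq was performed on brain tissue of age-matched C57BL/6 female mice (C57BL/6J in the methods of the study). The mice were either virgin or primiparous (after a first litter), and the study asked which genes differ long after the pups are gone. There were 8 virgin and 8 primiparous animals and 5 regions: hypothalamus, cerebellum, hippocampus, neocortex and amygdala. Counts of 77 libraries were used, each from 1 region of 1 mouse, with 8 per state in the hypothalamus and neocortex and 7 virgin and 8 primiparous libraries in the other regions. The primiparous females had been housed with a male for 2 weeks from 8 weeks of age, and the labels place the harvest 3 weeks after weaning, while the methods of the study give a longer interval. The virgins met no male and were housed as a group, so mating, male contact, housing, pregnancy, lactation and pup care cannot be told apart. The stage of the estrous cycle was not given in the sources used here. The whole hypothalamus was used, but only the left side of each other region. These are bulk tissues, in which fewer cells of a type and less RNA per cell cannot be told apart.

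The proteasome is the protease that degrades proteins marked with ubiquitin chains. Its barrel-shaped 20S core is made of stacked alpha rings, which gate the entrance, and beta rings, of which Psmb5, Psmb6 and Psmb7 carry the catalytic sites. The 19S cap recognises, unfolds and feeds in the substrate, using a ring of ATPases at its base and a lid that holds the deubiquitinase Psmd14. In immune cells and after interferon, Psmb8, Psmb9 and Psmb10 take the place of the catalytic subunits, and the activator PA28, made of Psme1 and Psme2, favours the release of peptides for MHC class I presentation. In neurons proteasome activity is known to take part in synaptic remodelling.

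Library totals ran from 7959192 to 37871854 counts with a median of 17623886, and the lowest count of any of the 41 genes in any library was 34. Levels are given as CPM, and tests were made with edgeR's quasi-likelihood test with trimmed-mean (TMM) scaling and Benjamini-Hochberg adjustment over all 13016 genes. A gene is called past the test at an adjusted p under 0.05. The summed level of each region's marker list was highest in the region it marks except for the amygdala list. That list had a median of 201 CPM in the amygdala, 377 CPM in the cerebellum and 424 CPM in the hypothalamus. One hippocampus library, that of primiparous animal 413, held 681 CPM of the cerebellum markers against a median of 149 CPM in the hippocampus; leaving it out kept the 5 counts of genes called between regions at 28, 28, 17, 31 and 25. Summed choroid plexus markers reached 5310 CPM in a primiparous cerebellum library, against a median of 286 CPM in that region. In the hippocampus they reached 5640 CPM in a virgin and 5680 CPM in a primiparous library, against a median of 311 CPM. One neocortex library, that of primiparous animal 427, stood apart in the 41 genes themselves. It held the highest level of 30 of the 41 genes over all 77 libraries. The summed level of the 41 genes was 4853 CPM there, against 2896 to 3846 CPM with a median of 3236 CPM in the other 15 neocortex libraries. Its transcripts were shifted towards short genes: the median of long less short genes (the outer quintiles of all genes) was -0.84 on the log2 scale, outside the virgin neocortex range of -0.25 to 0.25. Counts and values in which it weighs most are given with and without it.

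**Figure D1:**
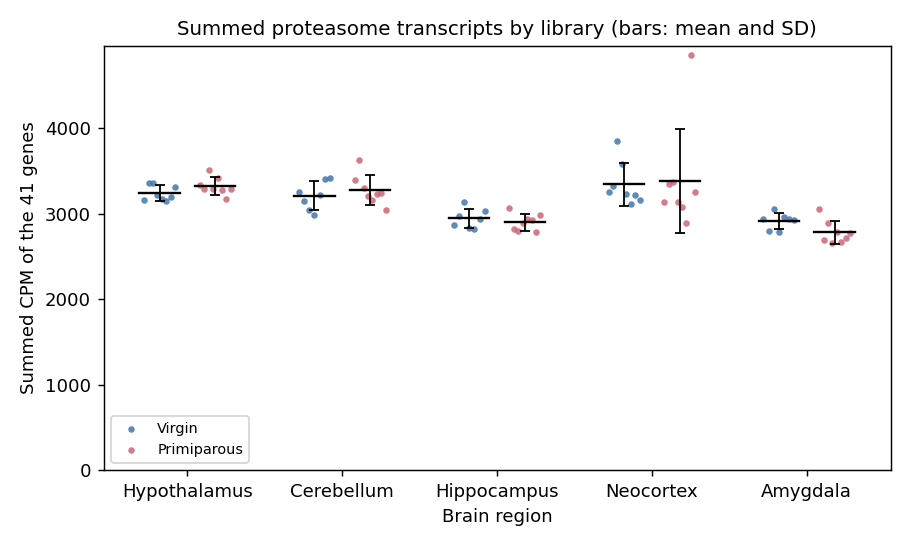
Summed CPM of the 41 proteasome genes in each library, by brain region, with virgin libraries in blue and primiparous libraries in red; black bars are the mean and SD of each group. All other libraries lie between 2656 and 3846 CPM, and the neocortex library of primiparous animal 427 lies at 4853 CPM.

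Promoters of 34 of the 41 genes were found in the RefSeq table of the build GRCm38.p6, in 37 windows, and the 250 bases before RefSeq's start of transcription were searched on both strands. The letters TGACNNNGC, the core of the antioxidant response element bound by the transcription factors Nfe2l1 and Nfe2l2, which are known to drive proteasome genes, were found in 4 of the 37 windows, or 10.8%, against 10.2% of all 32851 windows. The 4 genes were Psmb5, Psmb6, Psmc6 and Psmd9. The letters CCAAT were found in 12 of the 37 windows, or 32.4%, against 33.8% of all windows. The share of matches was therefore close to that of promoters in general for both motifs. The 250 bases are printed for Psmb6 and Psmc6, which held a match and passed the parity test in opposite directions in the hypothalamus, and for Psme1 and Psmb10, whose levels varied most between regions and which held none. RefSeq and GENCODE place the starts of some of these genes differently, so that 36 bases of the Psmc6 window, 52 of the Psmb10 window and all 250 of the Psme1 window lie inside the gene as GENCODE gives it, and none of the Psmb6 window. The windows lie at chr11:70525107-70525356, plus strand for Psmb6, chr14:45329574-45329823, plus strand for Psmc6, chr14:55578244-55578493, plus strand for Psme1 and chr8:105938393-105938642, minus strand for Psmb10. Each is written 5′ to 3′ in the direction of its gene, with the match to TGACNNNGC on either strand in capitals.
Psmb6: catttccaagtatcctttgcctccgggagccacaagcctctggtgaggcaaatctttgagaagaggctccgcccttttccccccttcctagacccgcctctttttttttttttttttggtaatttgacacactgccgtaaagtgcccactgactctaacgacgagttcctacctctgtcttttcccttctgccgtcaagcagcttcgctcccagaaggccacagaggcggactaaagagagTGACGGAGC
Psmc6: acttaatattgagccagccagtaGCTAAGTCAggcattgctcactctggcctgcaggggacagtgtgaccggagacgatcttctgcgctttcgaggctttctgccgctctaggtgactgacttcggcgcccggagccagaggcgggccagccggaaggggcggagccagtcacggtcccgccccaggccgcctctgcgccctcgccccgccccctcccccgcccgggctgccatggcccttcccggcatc
Psme1: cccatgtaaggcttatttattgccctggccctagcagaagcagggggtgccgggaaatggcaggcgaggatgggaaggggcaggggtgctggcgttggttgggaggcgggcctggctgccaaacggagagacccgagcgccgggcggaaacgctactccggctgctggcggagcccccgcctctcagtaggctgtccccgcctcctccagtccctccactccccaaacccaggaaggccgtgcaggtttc
Psmb10: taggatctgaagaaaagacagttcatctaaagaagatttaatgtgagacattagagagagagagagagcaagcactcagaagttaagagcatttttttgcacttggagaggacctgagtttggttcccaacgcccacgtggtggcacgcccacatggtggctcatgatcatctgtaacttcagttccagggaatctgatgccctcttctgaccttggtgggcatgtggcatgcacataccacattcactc
The match in Psmb6 begins 9 bases before the start, and that in Psmc6, on the opposite strand, begins 227 bases before it.

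Levels between genes were compared as CPM per kilobase of transcript (RPKM), with the median over the 77 libraries. The assembly chaperones had the lowest median of the roles, 10.5 RPKM, and the ranges of the structural roles overlapped. Among the ATPases Psmc5 was highest at 146 RPKM and Psmc6 lowest at 20.5 RPKM, a 7.12-fold range. In the alpha ring the range ran from Psma3 at 23.2 RPKM to Psma7 at 82.5 RPKM, and in the constitutive beta ring from Psmb2 at 54.9 RPKM to Psmb4 at 100 RPKM. In the base Psmd2, a scaffold and ubiquitin-binding subunit, stood at 73.2 RPKM and Psmd1, the other large scaffold, at 49.0 RPKM. In the lid the highest was Psmd7, the partner of the deubiquitinase, at 62.9 RPKM and the lowest Psmd11 at 15.8 RPKM. The assembly chaperones lay close together, from Psmg2 at 8.68 RPKM to Psmd10 at 11.4 RPKM. These ranks pool the regions and need not hold in each one. In the cerebellum Psmd8 stood at 79.9 RPKM and Psmd7 at 60.0 RPKM, and Psmb6 at 116 RPKM and Psmb4 at 99.2 RPKM.

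The inducible core subunits were far below their constitutive partners. Psmb8, the counterpart of Psmb5, ran from 2.57% of Psmb5 in the cerebellum to 4.05% in the hypothalamus (medians of RPKM ratios). Psmb9, the counterpart of Psmb6, ran from 0.706% of Psmb6 in the cerebellum to 1.21% in the amygdala. Psmb10, the counterpart of Psmb7, was the exception, with a median of 12.6% of Psmb7 for cerebellum, 19.8% for hippocampus, 23.3% for hypothalamus, 26.3% for amygdala and 31.7% for neocortex. The ranges of this ratio in single libraries were 10.9% to 15.9% in the cerebellum and 27.2% to 41.5% in the neocortex, which do not overlap.

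Levels across regions varied little for most of the genes. The highest region mean was less than 1.5 times the lowest in 35 of 41 genes, and still in 35 without the neocortex library of animal 427, while 34.3% of all genes tested stayed within that limit. The median of this ratio was 1.29 for the 41 genes and 1.72 for all genes. The 6 genes beyond it were Psme1, Psmb10, Psme4, Psmg2, Psme2 and Psmd5. No alpha-ring, constitutive beta-ring, 19S base or lid subunit was among them. The 41 genes were not matched to other genes on level.

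The alternative activators, which cap the core in place of the 19S particle, diverged from each other. Psme1, the alpha subunit of PA28, varied most. It was 41.5 to 64.4 CPM in the hypothalamus (median 50.9), 27.0 to 40.9 CPM in the amygdala (median 35.3), 21.8 to 50.9 CPM in the neocortex (median 27.7), 23.8 to 30.2 CPM in the hippocampus (median 26.3) and 13 to 19.8 CPM in the cerebellum (median 14.9). The hypothalamus libraries lay above every other library except the neocortex library of animal 427, and the cerebellum libraries lay below all others. The mean was 51.8 ± 6.16 CPM (SD, n = 16) in the hypothalamus and 15.5 ± 1.90 CPM (SD, n = 15) in the cerebellum, a ratio of 3.34. Against the mean of the other 4 regions Psme1 was higher in the hypothalamus by 0.93 ± 0.0493 (log2, SE; adjusted p = 1.34e-29) and in the amygdala by 0.41 ± 0.0526 (log2, SE; adjusted p = 1.55e-10). It was lower in the cerebellum, with a log2 difference of -1.25 ± 0.0594 (SE; adjusted p = 1.1e-32). In this order of regions the neocortex and hippocampus did not differ beyond their spread (adjusted p = 0.398), and the other neighbours did. Levels in CPM are not TMM-scaled whereas the differences are, so small steps in CPM and in the test need not match. Psme1 shares exon sequence with Emc9 on the opposite strand.

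Psme2, the beta subunit of the same activator, was 14.8 to 26.7 CPM in the hypothalamus (median 21.5) and 10.8 to 15.5 CPM in the hippocampus (median 13.4), which overlap. Like Psme1, it was higher in the hypothalamus, by 0.39 ± 0.0527 (log2, SE; adjusted p = 3.68e-10), and in the amygdala, by 0.12 ± 0.0555 (log2, SE; adjusted p = 0.0422). It was lower in the cerebellum, at -0.24 ± 0.0563 (log2, SE; adjusted p = 9.37e-05), and in the hippocampus, at -0.28 ± 0.0562 (log2, SE; adjusted p = 1.18e-05). With the animal as a block and an offset for length and GC content, the Psme2 difference in the hippocampus was -0.08 (log2; adjusted p = 0.176). The call of Psme2 in the amygdala was lost in 2 of the 6 alternatives run. Per length, Psme2 stood at a median of 47.7% of Psme1 in the hypothalamus and 111% of it in the cerebellum. Psme3, which forms the nuclear activator PA28 gamma, was the highest of the 4 activators over all 77 libraries, at a median of 39.2 RPKM. In the hypothalamus Psme1 was higher, at a median of 45.8 RPKM against 39.0 RPKM for Psme3. Psme3 was the most even of the 4, with a ratio of 1.06 between its highest and lowest region.

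Psme4, the large activator PA200, was opposite to Psme1 in the hypothalamus, cerebellum and amygdala. It was 60.6 to 85.5 CPM in the cerebellum (median 78.6), 47.2 to 71.7 CPM in the neocortex (median 65.6), 46.3 to 58.2 CPM in the hippocampus (median 51.2), 28.6 to 49.9 CPM in the hypothalamus (median 45.5) and 35.6 to 50.4 CPM in the amygdala (median 37.7). All cerebellum libraries lay above all libraries of the hippocampus, hypothalamus and amygdala, and the last 2 regions overlapped. The log2 difference from the other regions was 0.54 ± 0.0392 in the cerebellum (SE; adjusted p = 4.27e-22), 0.37 ± 0.0388 in the neocortex (SE; adjusted p = 9.8e-14), -0.46 ± 0.0414 in the hypothalamus (SE; adjusted p = 3.34e-17) and -0.44 ± 0.0426 in the amygdala (SE; adjusted p = 2.28e-15). The neocortex difference of Psme4 was 0.60 (log2) with that block and offset. The hypothalamus and amygdala did not differ beyond their spread (adjusted p = 0.773). Per length Psme4 was the lowest of the 4 activators, at 7.77 RPKM.

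Psmb10, the inducible counterpart of the catalytic subunit Psmb7, was 33.3 to 74.7 CPM in the neocortex (median 39.3), 25.0 to 38.1 CPM in the amygdala (median 29.3), 20.8 to 40.0 CPM in the hypothalamus (median 28.2), 15.3 to 25.6 CPM in the hippocampus (median 21.5) and 13.4 to 20.5 CPM in the cerebellum (median 16.2). The highest value, 74.7 CPM, was that of the neocortex library of animal 427. Every neocortex library lay above every hippocampus and cerebellum library. The log2 difference from the other regions was 0.90 ± 0.0536 in the neocortex (SE; adjusted p = 2.95e-26) and -0.92 ± 0.0630 in the cerebellum (SE; adjusted p = 2.55e-23), and each neighbour in the order of regions differed from the next. Without the library of animal 427 the neocortex mean was 40.1 CPM and the log2 difference 0.83. With the animal as a block and an offset for length and GC content, the neocortex difference was 0.73 (log2). In that fit the hippocampus stood at -0.08 (log2; adjusted p = 0.0731), against -0.29 in the main fit, and the hypothalamus at -0.01 (log2; adjusted p = 0.876). Neighbouring regions were not compared in that fit. The summed level of 10 microglia markers had its lowest median, 172 CPM, in the cerebellum. Their median was 327 CPM in the hypothalamus, 434 CPM in the neocortex, 439 CPM in the hippocampus and 530 CPM in the amygdala. All 10 were detected in each region. The part of microglia in the levels of Psmb10 and Psme1 was not tested.

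**Figure D2:**
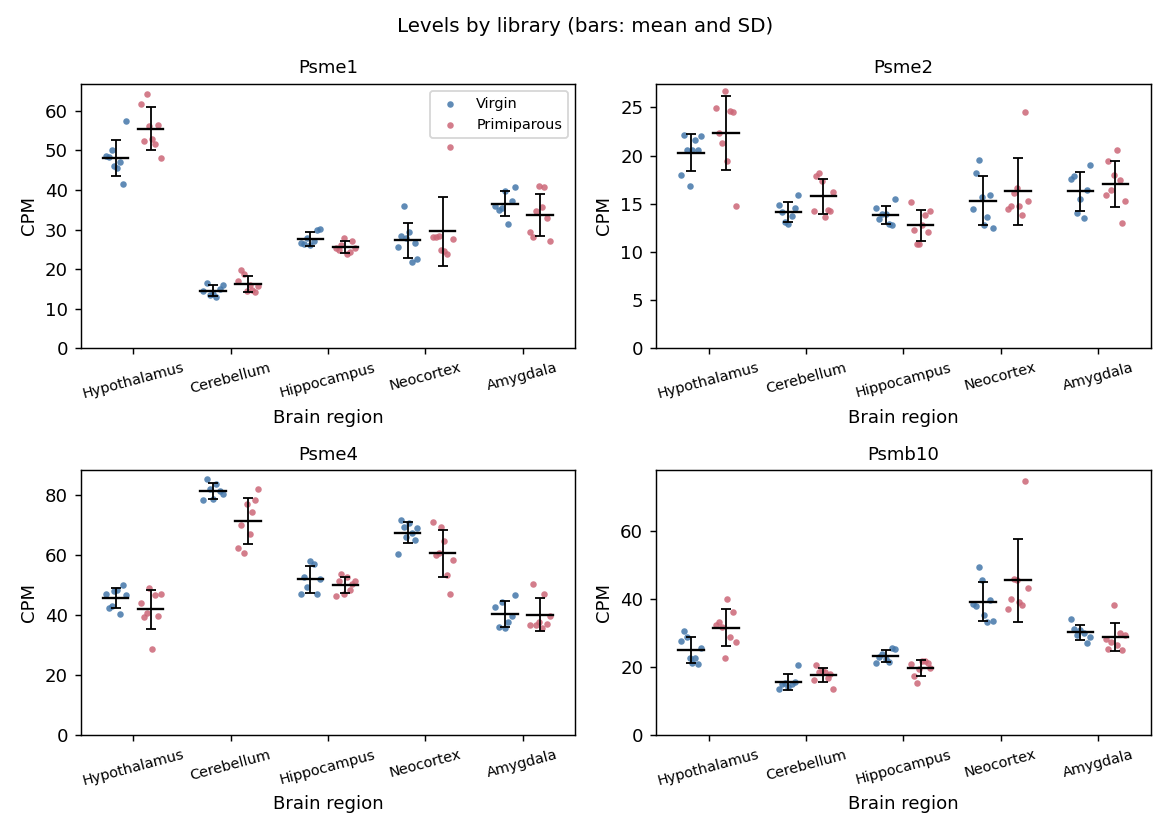
CPM of Psme1, Psme2, Psme4 and Psmb10 in each library by brain region, virgin in blue and primiparous in red; black bars are the mean and SD of each group. Psme1 is highest in the hypothalamus (median 50.9 CPM), Psme4 in the cerebellum (median 78.6 CPM) and Psmb10 in the neocortex (median 39.3 CPM).

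Among the chaperones, Psmg2, which pairs with Psmg1 to build the alpha ring, was higher in the cerebellum by 0.39 ± 0.0724 (log2, SE; adjusted p = 1.11e-06) and lower in the amygdala, at -0.44 ± 0.0790 (log2, SE; adjusted p = 9.12e-07). Its levels were low, 9.66 to 14.3 CPM in the cerebellum and 4.48 to 9.22 CPM in the amygdala, and these ranges do not overlap. Psmd5, a chaperone of the 19S base, was higher in the hypothalamus by 0.39 ± 0.0338 (log2, SE; adjusted p = 1.07e-17) and lower in the neocortex, at -0.32 ± 0.0355 (log2, SE; adjusted p = 7.91e-13). Psmg3 and Psmg4, which act together on the alpha ring, stood at 10.8 and 10.2 RPKM. Psmg4 was past the test in none of the 5 regions, but with the block and offset it stood at 0.39 in the hippocampus (log2; adjusted p = 6.76e-05) and -0.28 in the hypothalamus (log2; adjusted p = 0.00338). Psmg1, matched by identifier only, was higher in the hypothalamus by 0.38 ± 0.0661 (log2, SE; adjusted p = 4.56e-07), and so was the lid subunit Psmd12, by 0.33 ± 0.0328 (log2, SE; adjusted p = 5.83e-15). In the same fit the differences of Psmd5 and Psmd12 were smaller and still past the test, at 0.22 for Psmd5 and 0.21 for Psmd12 in the hypothalamus and -0.17 for Psmd5 in the neocortex (log2).

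Counts over the 41 genes differed between regions. In the neocortex 30 genes were higher and 1, Psmd5, was lower than the mean of the other regions, where the test called 37.7% of all genes higher and 36.2% lower. All 7 constitutive beta-ring subunits, 6 of 7 alpha-ring subunits and 5 of 6 ATPases were among the 30. The median difference was 0.147 on the log2 scale against 0.0085 over all genes. Without the library of animal 427 the counts were 26 higher and 1 lower, with a median of 0.106. The shares and the median of all genes without that library are not given here. In the amygdala 4 were higher and 21 lower, against 33.3% and 33.2% of all genes. The 21 included 6 of 7 alpha-ring subunits, 5 of 6 ATPases and all 3 non-ATPase base subunits. With the animal as a block and an offset for length and GC content, 1 alpha-ring subunit, 3 ATPases and 2 non-ATPase base subunits were lower in the amygdala. Psma4 of the alpha ring, which had a negative difference in the main fit, was then higher there, at 0.06 (log2; adjusted p = 0.0429). In the neocortex 4 of the 7 constitutive beta-ring subunits were then higher, with 6 alpha-ring subunits and 5 ATPases. The summed level of 10 neuron markers had its highest median, 8330 CPM, in the neocortex, against 5390 to 6620 CPM in the other regions. That of 10 oligodendrocyte markers had its lowest median, 2650 CPM, in the amygdala, against 5390 to 6090 CPM in the other regions. The part of these cell types in the counts was not tested.

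In the cerebellum 10 were higher and 18 lower, against 42.3% and 40.2% of all genes. In the hippocampus 8 were higher and 9 lower, against 32.4% and 34.1% of all genes. There the largest differences among the genes called were 0.17 ± 0.0533 (log2, SE; adjusted p = 0.0039) for the catalytic subunit Psmb5 and -0.31 ± 0.0382 (log2, SE; adjusted p = 3.67e-11) for the ATPase Psmc5. In the hypothalamus 14 were higher and 14 lower, against 38.5% and 39.1% of all genes. With the animal as a block and an offset for length and GC content the split of higher against lower genes became 20 and 1 (hippocampus), 10 and 11 (amygdala) and 5 and 26 (hypothalamus). The split of all genes moved as well, to 41.5% higher and 26.9% lower (hippocampus), 39.4% and 28.2% (amygdala) and 30.3% and 51.6% (hypothalamus), where the median of all genes was -0.1183 on the log2 scale. For the 41 genes it was 28 and 3 in the neocortex and 10 and 21 in the cerebellum, against 41.1% and 32.1%, and 41.3% and 43.0%, of all genes. In this fit Psmb5 in the hippocampus stood at 0.42 and Psmc5 at -0.16 on the log2 scale.

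**Figure D3:**
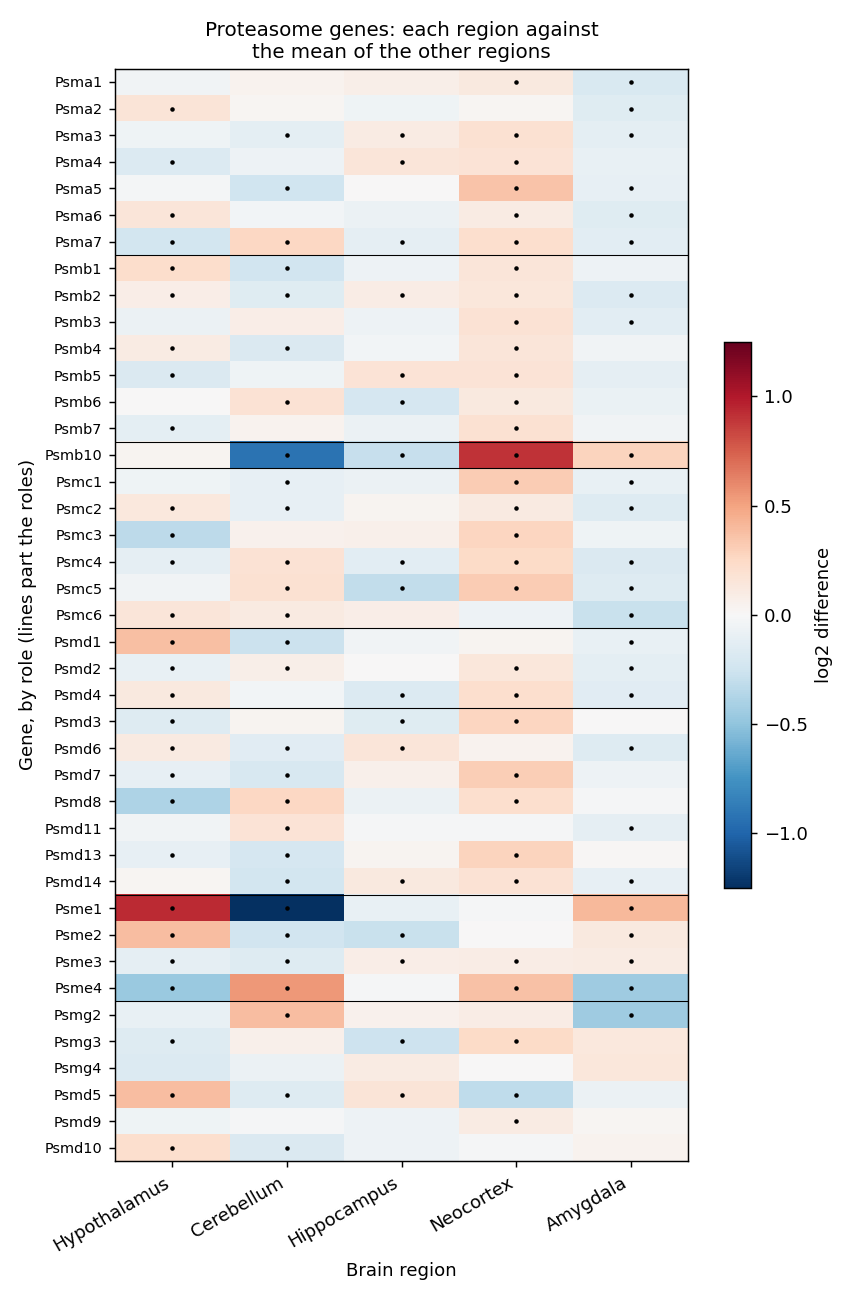
Log2 difference of each region (columns) from the mean of the other regions for the 41 genes (rows, parted by role), red for higher and blue for lower; dots mark an adjusted p under 0.05. The largest differences are those of Psme1 (0.93 in the hypothalamus, -1.25 in the cerebellum) and Psmb10 (0.90 in the neocortex, -0.92 in the cerebellum), while the neocortex column is red for most ring and cap subunits.

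Within a region, the question was which genes differ between primiparous and virgin females. In the hypothalamus 8 of the 41 genes passed the test, or 19.5%, against 22.6% of all genes. The 5 induced genes were Psmb10, Psmb6, Psmd13, Psmd3 and Psmb4, against 10.8% of all genes called higher. The 3 repressed genes were Psmc6, Psma3 and Psma1, against 11.8% called lower. The share was thus close to the background, and the median difference over the 41 was 0.015 on the log2 scale, against 0.0145 over all genes. No activator, chaperone or non-ATPase base subunit was among the 8. The chaperone Psmd5 was called lower by 1 edgeR fit of all 10 groups, at -0.18 (log2; adjusted p = 0.0341), by DESeq2, which also called the activator Psme1 higher, and by limma-voom with quality weights, which called 18 of the 41 genes and 37.6% of all genes. In the GENCODE annotation of GRCm38 the induced genes lie at chr8:105935735-105938444 (Psmb10), chr11:70525367-70527858 (Psmb6), chr7:140881968-140898643 (Psmd13), chr11:98682554-98695979 (Psmd3) and chr3:94884093-94886961 (Psmb4). The repressed genes lie at chr14:45329788-45349705 (Psmc6), chr12:70974621-70996347 (Psma3) and chr7:114264606-114276118 (Psma1).

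Psma3, an alpha-ring subunit, was 70.5 to 77.9 CPM in virgins (median 73.3) and 55.7 to 70.6 CPM in primiparous females (median 64.2). The groups met only at their edges, and 7 of 8 primiparous libraries lay below every virgin library. The log2 difference was -0.24 ± 0.0556 (SE; adjusted p = 0.00539). Psmc6, an ATPase, was 49.5 to 63.1 CPM in virgins (median 59.6) and 38.2 to 57.4 CPM in primiparous females (median 46.3). The groups overlapped, with 5 primiparous libraries below the virgin range. The log2 difference was -0.31 ± 0.0770 (SE; adjusted p = 0.00708). Psma1, another alpha-ring subunit, was 63.8 to 79.9 CPM in virgins (median 74.7) and 60.8 to 75.7 CPM in primiparous females (median 64.8). The groups overlapped widely, and the log2 difference was -0.17 ± 0.0594 (SE; adjusted p = 0.0402).

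Psmb6, a catalytic subunit, was 67.3 to 90.6 CPM in virgins (median 75.6) and 78.4 to 108 CPM in primiparous females (median 90.7). All 8 primiparous libraries lay above the virgin mean, and the log2 difference was 0.23 ± 0.0662 (SE; adjusted p = 0.0167). Psmb4, a non-catalytic beta-ring subunit, was 118 to 140 CPM in virgins (median 125) and 127 to 153 CPM in primiparous females (median 143). Here 7 of 8 primiparous libraries lay above every virgin library, and the log2 difference was 0.16 ± 0.0462 (SE; adjusted p = 0.0193). Psmb10 was 20.8 to 30.6 CPM in virgins (median 24) and 22.5 to 40.0 CPM in primiparous females (median 32.0). The groups overlapped, and the log2 difference was 0.31 ± 0.102 (SE; adjusted p = 0.0305).

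The lid subunits Psmd13 and Psmd3 were also induced. Psmd13 was 61.3 to 71.0 CPM in virgins (median 64.8) and 67.6 to 86.8 CPM in primiparous females (median 73.9), with 6 of 8 primiparous libraries above the virgin range and a log2 difference of 0.19 ± 0.0590 (SE; adjusted p = 0.0228). Psmd3 was 97.9 to 111 CPM in virgins (median 102) and 95.5 to 136 CPM in primiparous females (median 119), where 6 libraries lay above and 1 below the virgin range. The log2 difference of Psmd3 was 0.17 ± 0.0615 (SE; adjusted p = 0.0478). Exons of Psmd13 and Psmd3 overlap those of Sirt3 and Gm12356 on the opposite strand. The calls of Psmd3, Psma1 and Psmb10 were lost in 18, 16 and 10 of the 24 alternatives run, and limma-voom gave Psmb10 an adjusted p of 0.0529. Psme1 was just outside the threshold, at 0.19 ± 0.0686 (log2, SE; adjusted p = 0.0520).

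**Figure D4:**
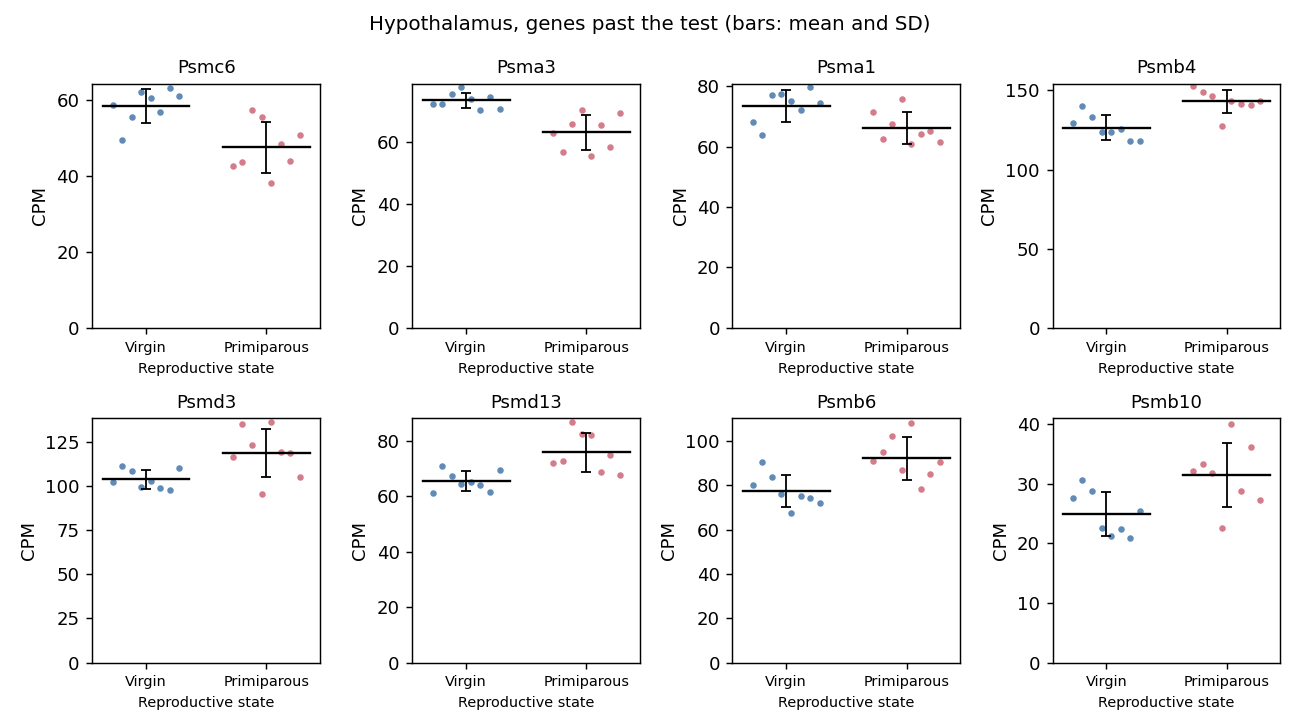
CPM in each hypothalamus library of the 8 genes that passed the parity test, virgin in blue and primiparous in red, with the mean and SD of each group in black. Psmc6, Psma3 and Psma1 are lower and the other 5 higher in primiparous females, with overlapping groups in each panel.

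The direction of these differences followed the GC content of the transcripts. The 3 repressed genes had 37.0% to 44.0% GC and the 5 induced genes 51.6% to 56.5%. Across the 41 genes, which share the same 16 libraries, the parity difference and GC content had a Pearson r of 0.755 and a Spearman rho of 0.787, given as a description. In the regions where none of the 41 genes was called the Pearson r was 0.722 (neocortex), 0.254 (cerebellum), -0.43 (amygdala) and -0.527 (hippocampus). The libraries themselves differed in this way: the level of GC-rich less GC-poor genes (medians of the outer quintiles of all genes) had a median of -0.24 in virgin and 0.13 in primiparous hypothalamus libraries, with ranges of -0.29 to 0.16 and -0.13 to 0.49 on the log2 scale. With an offset for each library's trend with length and GC content, none of the 8 genes passed the test and Psmc2, an ATPase, alone did, at 0.22 ± 0.0603 (log2, SE; adjusted p = 0.0380). The Pearson r with GC content was then -0.123. The offset left Psmc6 at -0.05 ± 0.0525 (log2, SE; adjusted p = 0.635) and Psmb6 at 0.11 ± 0.0499 (log2, SE; adjusted p = 0.226). The share of all genes called with this offset is not given here. The loss of the 8 calls is therefore not read as particular to these genes.

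**Figure D5:**
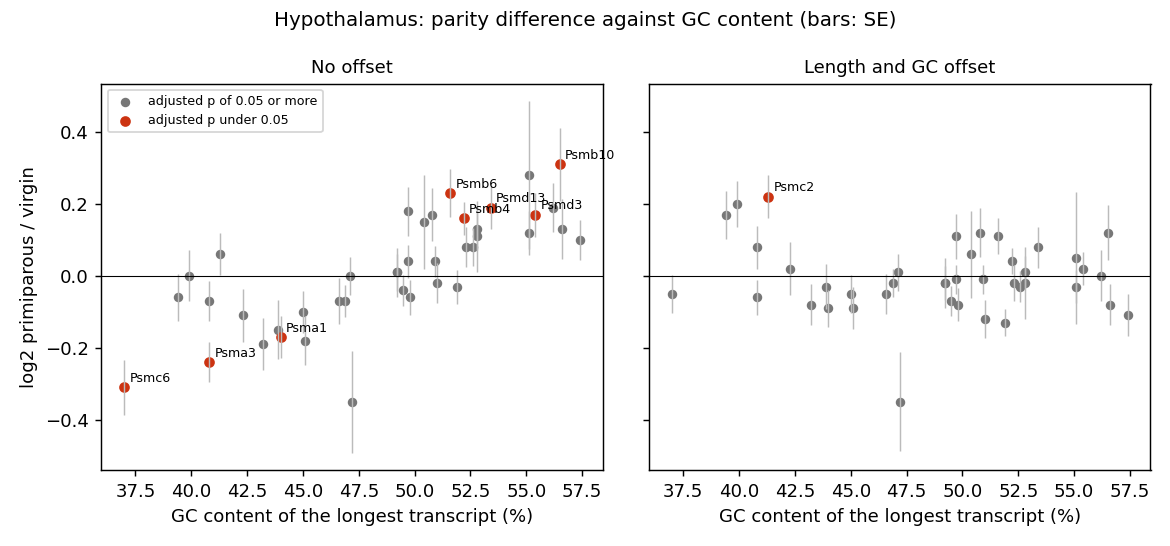
Log2 ratio of primiparous to virgin hypothalamus (y axis, with SE) against GC content of the longest transcript in percent (x axis) for the 41 genes, without (left) and with (right) an offset for each library's length and GC trend; red points have an adjusted p under 0.05. The rise with GC content on the left (Pearson r 0.755) is not seen on the right (r -0.123).

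The calls also moved with the animal numbers. Of the virgins 6 have numbers of 4 digits and 2 of 3 digits, whereas 7 primiparous females have 3 digits and 1 has 4; the labels do not say what the digits mean. With this series of numbers as a covariate none of the 41 genes passed the test in the hypothalamus, and 3 had an unadjusted p under 0.05. Psma3 then stood at -0.18 ± 0.0678 (log2, SE; adjusted p = 0.226). The shares of all genes in that fit are not given here, so these counts are not read as particular to the 41 genes. Leaving out 1 hypothalamus library at a time gave between 4 genes, without virgin 4490, and 14 genes, without primiparous 418, where 15.5% and 31.6% of all genes were called. Counts below the main 8 by over 1.5 times, 5 genes each, were also found without virgin 4487, 4488 or 4489 and without primiparous 414, 421 or 427, where 15.8% to 20.2% of all genes were called, and 13 genes were called without virgin 409, against 30.2% of all genes.

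In the other regions none of the 41 genes passed the edgeR test. In the cerebellum, where 0.707% of all genes were called, 8 of the 41 had an unadjusted p under 0.05, against 19.5% of all genes. The smallest p belonged to Psme4, at 78.3 to 85.5 CPM in virgins (median 81.5) and 60.6 to 82.0 CPM in primiparous females (median 72.2). Its groups overlapped, and the log2 difference was -0.17 ± 0.0594 (SE; adjusted p = 0.121). With sample weights limma-voom called 1 gene lower there, and so did edgeR without primiparous 4493. The shares of all genes in those fits are not given here, so these calls are not read as particular to the 41 genes. In the amygdala 7 genes had an unadjusted p under 0.05, against 11.9% of all genes, led by Psmb4 at -0.16 ± 0.0544 (log2, SE; adjusted p = 0.257). Its level there was 111 to 126 CPM in virgins (median 120) and 97.0 to 120 CPM in primiparous females (median 105). In the hippocampus 1 gene did, against 7.38% of all genes, namely Psmb10, at 21.2 to 25.6 CPM in virgins (median 22.8) and 15.3 to 21.8 CPM in primiparous females (median 20.3), with a log2 difference of -0.23 ± 0.0721 (SE; adjusted p = 0.564). In the neocortex none did, against 9.8% of all genes, and the smallest p was that of Psmb10 at 0.25 ± 0.126 (log2, SE; adjusted p = 0.5), which was 0.11 (log2; adjusted p = 0.541) without the library of animal 427. DESeq2 and limma-voom without weights called 0 genes in each of these 4 regions.

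The parity difference in the hypothalamus was then tested against that in each other region. It differed from that in the amygdala for 8 of 41 genes, against 18.2% of all genes, and for 4 with the animal as a block, against 14%. It differed from that in the hippocampus for 9 genes, against 17.2% of all genes, and for 5 with the block, against 11.1%. Against the cerebellum it differed for 5 genes, against 15.5% of all genes, and for 1, Psma3, with the block, against 11.5%. Against the neocortex 0 genes passed edgeR's test, with 1 at an unadjusted p under 0.05, 0 by limma-voom, and 0 without the library of animal 427. The share of all genes called against the neocortex is not given here, so this count is not read as particular to the 41 genes. With the length and GC offset the counts were 0 against the amygdala and hippocampus and 2 against the cerebellum, where 0.814%, 1.41% and 7.78% of all genes were called. These comparisons share the hypothalamus libraries. Psmb6 differed from the amygdala by 0.44 (log2; adjusted p = 0.00624, and 0.0043 with the block), and Psmc6 differed from the hippocampus by -0.44 (log2; adjusted p = 0.00396, and 0.0126 with the block).

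Other genes of the pathway were taken from lists of known partners. Of 11 other proteasome genes tested, 1 was induced and 4 were repressed in the hypothalamus, where 10.8% of all genes were called higher and 11.8% lower. The induced gene was Adrm1, a ubiquitin receptor of the 19S cap, at 0.24 ± 0.0743 (log2, SE; adjusted p = 0.0229). The repressed genes were Zfand5, an activator of the particle, at -0.34 ± 0.0669 (log2, SE; adjusted p = 0.00232), the deubiquitinase Usp14, at -0.28 ± 0.0650 (log2, SE; adjusted p = 0.00522), Txnl1, a thioredoxin-like partner of the cap, and the ubiquitin ligase Ube3c. The call of Adrm1 was lost without primiparous 414, virgin 4488 or virgin 4490, and that of Ube3c without virgin 4490. The repressed count was 5 without virgin 409, and 6 without primiparous 418 and by limma-voom with quality weights. Of 16 genes of ubiquitin supply and delivery, 2 were induced and 2 were repressed, close to those shares of all genes. These counts became 1 and 1 without primiparous 413, 414 or 427 or virgin 4488, 4489, 4490 or 4491, 1 and 2 without primiparous 421 or virgin 405 or 4487 and with no filter on low counts, 2 and 3 without primiparous 425, by DESeq2 and by limma-voom, 2 and 4 without primiparous 418 or 4493, 2 and 5 without virgin 409, and 3 and 5 by limma-voom with quality weights. Ngly1, a glycanase that acts on Nfe2l1, was repressed in each of these, and stood at -0.32 ± 0.0934 (log2, SE; adjusted p = 0.0183).

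Of 9 genes of MHC class I presentation tested, 1 was induced in the hypothalamus, Tapbp, a chaperone of peptide loading, at 0.22 ± 0.0668 (log2, SE; adjusted p = 0.0196). Repressed were B2m, the light chain, at -0.23 ± 0.0681 (log2, SE; adjusted p = 0.0193), and Erap1, a peptide-trimming enzyme, at -0.37 ± 0.114 (log2, SE; adjusted p = 0.0234). These counts became 0 and 1, Erap1, in 1 edgeR fit of all 10 groups, 3 and 2 without primiparous 418, 2 and 2 without virgin 409, 1 and 1 without virgin 4489, where the call of Erap1 was lost, and 3 and 3 by limma-voom with quality weights. The heavy chains H2-K1 and H2-D1 stood at 0.12 ± 0.0971 (log2, SE; adjusted p = 0.395) and 0.22 ± 0.0872 (log2, SE; adjusted p = 0.0691). The peptide transporter subunits Tap1 and Tap2 stood at 0.17 ± 0.177 (log2, SE; adjusted p = 0.503) and 0.23 ± 0.121 (log2, SE; adjusted p = 0.165), and the interferon-response factor Irf1 at 0.03 ± 0.142 (log2, SE; adjusted p = 0.892). With the length and GC offset, and with the series of animal numbers as covariate, edgeR called none of these pathway genes in the 3 lists. None of the 10 microglia markers passed the test in the hypothalamus, and their summed level was 306 to 340 CPM in virgins and 309 to 391 CPM in primiparous females.

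Within groups, the genes of the particle varied together from library to library. The within-group coefficient of variation had a median of 8.28% over the 41 genes, from 4.89% for Psmd2 to 16.2% for Psmg4. The deviations from the group means had a median Pearson r of 0.437 over the 820 pairs of genes and of 0.656 over the 91 pairs of constitutive core subunits, against 0.014 over all pairs of genes tested. Without the neocortex library of animal 427 the medians for the 41 genes and the core subunits were 0.278 and 0.44. With each library's length and GC trend taken out they were 0.167 and 0.237. The value of 0.014 is for all libraries with the trends left in, and none was computed for these other settings. Psme4 went against the core subunits, with a median r of -0.257, which was -0.093 without that library and 0.038 with the trends taken out. These are descriptions over 77 libraries from 16 animals, and the points share library depth and composition.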

How the data were processed

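The authors deposited a table of read counts per gene and a table of log2 values; per the labels, polyadenylated RNA was sequenced as single-end reads, and the submitters' processing notes name CASAVA, HISAT2, featureCounts, edgeR, limma and the build mm10. Whether counting used strand was not given in the sources used here, and the library kit does not mark strand, so reads of overlapping antisense genes cannot be told apart. The deposited log2 table gave gene symbols only; its values were not tested. Of 80 samples, 3 virgin samples were not analysed here.

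Counts were turned into CPM. The 13016 genes that reached 5 CPM in 8 or more libraries were kept. Tests used edgeR 4.0.16 with TMM scaling, robust dispersion and Benjamini-Hochberg adjustment: state within each region, the interaction of state with region, and each region against the mean of the other 4 in 1 fit of all 10 groups. Alternatives used limma 3.58.1 and DESeq2 1.42.0, in R 4.3.3. Transcript length and GC content came from GENCODE M21 on GRCm38 and were known for 97.05% of genes. The scripts were tested on simulated data. Libraries of 1 animal share its number, as the labels give it, so region comparisons are paired: the median correlation of deviations from group means was -0.0131 to 0.104 for libraries of 1 animal over the 10 region pairs. Replicates are separate mice. Precision is limited by counts per library and the number of mice.

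The genes, lists and tests were chosen with earlier results of these data known. Named genes were up to 4 called genes with the smallest p in each direction in the hypothalamus, completed here by the fifth induced gene, Psmd3, which was chosen after its values were seen, the gene with the smallest p in each region without calls, the called gene with the largest difference in each direction per region, the highest and lowest gene per length in each role, and the inducible core subunits, activators and chaperones. Of genes outside the 41, the called gene with the smallest p in each direction per list and the MHC class I genes were named, except that some are not reported here; Usp14, Txnl1 and Ube3c were added after their values were seen. Leaving out hippocampus library 413 or neocortex library 427, and taking out library trends before correlating genes, was chosen after seeing the data.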

Additional observations from a re-analysis of the deposited data

Results flagged for a closer look

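In the neocortex, Psmb10 stood at 74.7 CPM in primiparous animal 427, far from the next library at 45.9 CPM and the lowest at 37.0 CPM of its group. This was the 1 value that stood apart among 24 groups examined, and chance marks about 1 in 20 groups.

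The parity difference of the following genes differed between the hypothalamus and another region by edgeR's interaction test, given as log2 hypothalamus minus the other region. Against the cerebellum it was -0.51 for Psmg2, -0.40 for Psma3, -0.30 for Psmc6, -0.29 for Psmd14 and -0.21 for Psme3. With the animal as a block only Psma3 kept an adjusted p under 0.05, at 0.017. Against the hippocampus it was -0.44 for Psmc6, -0.28 for Psmd5, -0.27 for Psma3, 0.22 for Psmb4, 0.24 for Psmd13, 0.26 for Psmb3, 0.27 for Psmb6, 0.29 for Psme1 and 0.54 for Psmb10. With the block Psmb4, Psmd13, Psmb3 and Psmb6 no longer passed, at adjusted p of 0.0594, 0.0704, 0.0864 and 0.0838. Against the amygdala it was -0.41 for Psmc6, 0.25 for Psmc3, 0.27 for Psmd3, 0.28 for Psmb3, 0.29 for Psmd13, 0.32 for Psmd4, 0.32 for Psmb4 and 0.44 for Psmb6. With the block Psmc3, Psmd3, Psmb3 and Psmd13 no longer passed, at adjusted p of 0.0774, 0.0782, 0.0669 and 0.0507. With block and length and GC offset together, Psme3 against the cerebellum was the 1 gene of these with an adjusted p under 0.05, at 0.0384.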

How the results depend on the processing

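In the hypothalamus the main count of 8 genes past the parity test became 5 in 1 edgeR fit of all 10 groups (4 of the 8 and the chaperone Psmd5), 18 by limma-voom with sample quality weights, 1 with the length and GC offset and 0 with the series of animal numbers as covariate; the last 2 shared no gene with the main 8, and the 18 held all 8. Leaving out 1 library at a time gave 4 to 14 genes: 4 without virgin 4490, 5 without primiparous 414, 421 or 427 or virgin 4487, 4488 or 4489, 13 without virgin 409 and 14 without primiparous 418. In the cerebellum limma-voom with sample quality weights called 1 gene, and leaving out 1 library gave 0 to 1. The shares of all genes in those cerebellum fits are not given here. The difference from the hypothalamus was moved by the pairing of libraries: with the animal as a replicate block the counts fell to 4 (amygdala), 1 (cerebellum) and 5 (hippocampus). With the length and GC offset they were 0, 2 and 0, and with block and offset together 0, 1 and 0. In the comparisons of regions, the block alone gave 28 genes (hypothalamus), 28 (cerebellum), 16 (hippocampus), 30 (neocortex) and 23 (amygdala). The shares of all genes with the block alone are not given here, so these counts are not read as particular to the 41 genes. The other alternatives kept the total counts within 1.5 times the main count. The split into higher and lower genes still moved with block and offset together, as given with the regional counts. Of the genes among the 41 that were followed over the alternatives, and of the called genes of the 3 pathway lists in the hypothalamus, none changed direction. Not every gene was followed. Psma4 in the amygdala went from a negative difference in the main fit to 0.06 (log2) with block and offset together. Counts, the number of mice and the confounding of state with animal numbers limit differences of this size; the cause of the moved counts was not tested.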
